A study of Mus musculus with 8 samples.

Results

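Mature neutrophils carry a set of transcripts that mark the last steps of granulocyte development, and 10 such marker genes were followed here through 8 libraries of sorted mouse neutrophils: Ly6g, S100a8, S100a9, Retnlg, G0s2, Stfa2l1, Mmp25, Padi4, Jaml and Msrb1. They were picked by gene name from the 55450 gene rows of the count table, with earlier results of these data known. All 10 were counted in every library, with at least 63 counts each, and all 10 passed the filter on low counts that left 15975 genes for testing. The cells had 2 origins. Some were taken from mouse brain tumours grown from SB28, a mouse glioma line, and the rest were made in a dish from the bone marrow of naive mice. Within each origin cells had been sorted on CD71, the transferrin receptor, which gave 4 groups of 2 libraries: culture CD71-, culture CD71+, tumour CD71- and tumour CD71+. Neutrophil subsets of the tumour were compared in the study with those made in culture. Not given in the sources used here are the strain, age and sex of the mice, the culture conditions, any treatment and the other antibodies of the sort. Since no label ties a library to an animal or culture of its own, p-values cover the spread between the libraries alone, and that spread may be technical. In bulk RNA of this kind, fewer cells of a type and less RNA of a gene per cell cannot be told apart.

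Neutrophils arise in bone marrow from promyelocytes. During maturation they first make primary granule proteins such as myeloperoxidase, then secondary granule proteins such as lactoferrin, and last the receptors, surface proteins and cytosolic proteins of the circulating cell. S100a8 and S100a9 encode the partners of calprotectin, the calcium- and zinc-binding complex that makes up much of the neutrophil cytosol. Ly6g encodes the GPI-anchored surface protein by which mouse neutrophils are commonly identified. CD71 is high on dividing precursors and is lost as neutrophils mature in normal marrow.

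Total counts were 9598959 to 22615813 per library, so 3 counts, the upper limit that a count of 0 allows, correspond to 0.0915 to 0.419 CPM (counts relative to a library size scaled by TMM). This limit covers counting error only. Tfrc, which encodes CD71, did not follow the sort label at the transcript level: it stood at 131 and 94.3 CPM in culture CD71- against 116 and 115 CPM in culture CD71+, and at 187 and 145 CPM in tumour CD71- against 103 and 108 CPM in tumour CD71+. CD71+ and CD71- below therefore mean the libraries labelled so. Mitochondrial transcripts took 7.09% and 12% of counts in culture CD71-, 1.45% and 2.17% in culture CD71+, and 0.202% to 1.04% in the 4 tumour libraries. The 10 marker genes together took 0.368% and 0.452% of all counts in culture CD71-, 0.160% and 0.138% in culture CD71+, 0.333% and 0.405% in tumour CD71-, and 0.312% and 0.320% in tumour CD71+. Libraries scaled differently: TMM factors were 0.602 and 0.646 in tumour CD71- and 1.45 and 1.49 in culture CD71+, and several results turn on this scaling. The quasi-likelihood test of edgeR gave log2 fold changes with standard errors (SE) and p-values, which were adjusted by Benjamini-Hochberg over all genes tested. The threshold for a change was an adjusted p of 0.05.

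Per kilobase of exon, S100a9 and S100a8 were the most abundant of the 10 in all 4 groups, and Mmp25, Padi4 or Ly6g the least. In tumour CD71- the mean level per kilobase was 3091 CPM for S100a9, 1669 CPM for S100a8, 1484 CPM for G0s2 and 1121 CPM for Retnlg, down to 20.3 CPM for Padi4 and 12.5 CPM for Ly6g. In culture CD71- the same scale gave 2573 CPM for S100a9 and 1904 CPM for S100a8, but 5.64 CPM for G0s2 and 5.39 CPM for Mmp25. The order of the groups separated the genes into 3 sets. Ly6g and Padi4 were highest in culture CD71- and lowest in tumour CD71+. Retnlg, G0s2, Stfa2l1, Mmp25, Jaml and Msrb1 were highest in tumour CD71-, then tumour CD71+, culture CD71- and culture CD71+. S100a8 and S100a9 were lowest in culture CD71+, and their levels in culture CD71- and tumour CD71- overlapped.

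**Figure D1:**
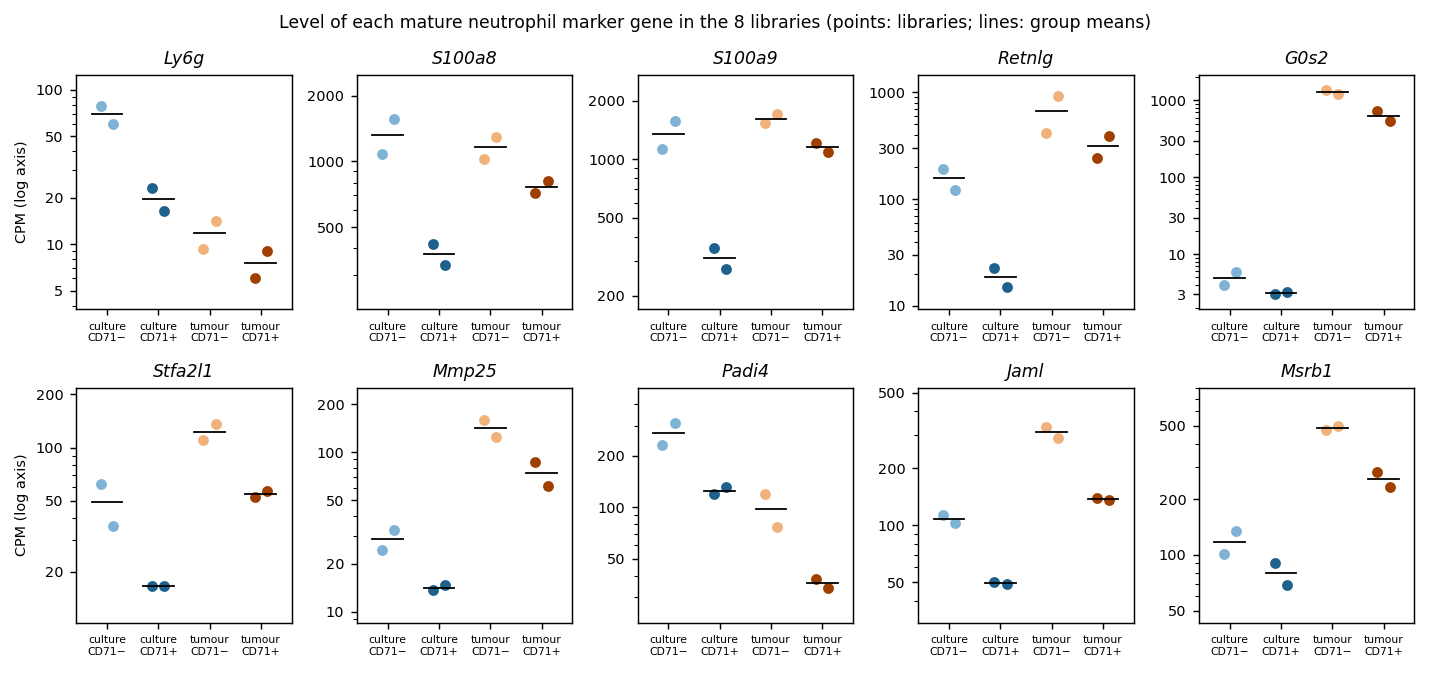
Each panel plots 1 gene, with CPM on a log axis against the 4 groups. Points are libraries and lines are group means of 2. In every panel the CD71+ points lie below the CD71- points of the same origin, and the G0s2 panel spans 3.08 to 1360.1 CPM.

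S100a8 (ENSMUSG00000056054.9, chromosome 3, 90668978 to 90670035, plus strand, on mm10) and S100a9 (ENSMUSG00000056071.12, chromosome 3, 90692632 to 90695721, minus strand) lie 22596 bases apart. S100a8 was read at 1079 and 1564 CPM in culture CD71-, 419 and 336 CPM in culture CD71+, 1023 and 1294 CPM in tumour CD71-, and 718 and 812 CPM in tumour CD71+. S100a9 was read at 1123 and 1563 CPM, 349 and 272 CPM, 1529 and 1699 CPM, and 1215 and 1088 CPM in the same order of groups. The culture CD71+ libraries were thus the lowest for both genes, and the CD71+ and CD71- libraries of an origin did not overlap in CPM. By total counts the tumour libraries of both genes overlapped. In culture S100a8 fell by 1.81 on the log2 scale from CD71- to CD71+ (SE 0.21, adjusted p = 0.000121). S100a9 fell by 2.11 (SE 0.21, adjusted p = 2.4e-05), a 4.32-fold lower level. In the tumour S100a8 fell by 0.60 (SE 0.21, adjusted p = 0.0322). The tumour difference of S100a9, −0.49 (SE 0.20, adjusted p = 0.0598), did not pass. Both tumour values hang on the scaling: by total counts S100a8 stood at −0.04 (adjusted p = 0.899) and S100a9 turned to 0.07 (adjusted p = 0.802). S100a8 also lost its tumour call when replicate 2 of tumour CD71- (adjusted p = 0.151), or replicate 1 or 2 of tumour CD71+ (0.16 and 0.0681), was left out, and S100a9 passed without either culture CD71- library (adjusted p = 0.0166 and 0.0158).

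The 2 calprotectin genes did not keep a fixed ratio, which within a library does not depend on scaling. There were 0.961 and 1.0 S100a8 counts per S100a9 count in culture CD71-, and 1.20 and 1.23 in culture CD71+. In the tumour the ratio was 0.669 and 0.762 in CD71- and 0.591 and 0.746 in CD71+. All 4 tumour libraries were below all 4 culture libraries. The tumour groups overlapped with each other, whereas both culture CD71+ libraries were above both culture CD71- libraries. The receptors of calprotectin were also read. Tlr4, which encodes the toll-like receptor 4, stood at 978 ± 14.5 CPM in tumour CD71- (SD, n = 2, as in the values with ± that follow) and 512 ± 20.6 CPM in tumour CD71+, and fell by 0.93 there (SE 0.20, adjusted p = 0.0021). In culture Tlr4 stood at 206 ± 58.8 and 219 ± 29.5 CPM (log2 fold change 0.09, SE 0.20, adjusted p = 0.816). Ager, which encodes the receptor RAGE, was lower in CD71+ in both origins, from 18.96 ± 1.27 to 8.93 ± 0.904 CPM in culture and from 7.71 ± 2.22 to 3.42 ± 0.889 CPM in the tumour. Bsg, which encodes basigin, a receptor reported for S100A9, fell in the tumour from 323 ± 67.1 to 193 ± 56.9 CPM (by 0.74, SE 0.22, adjusted p = 0.0137) and stood at 0.16 (SE 0.21, adjusted p = 0.658) in culture.

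**Figure D2:**
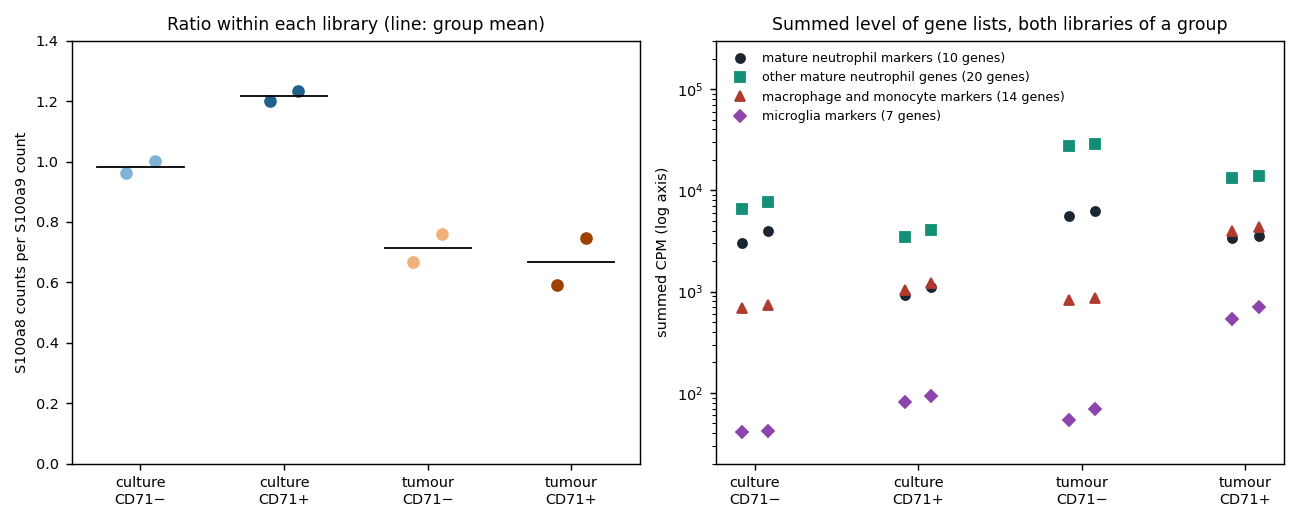
The left panel plots S100a8 counts per S100a9 count (linear axis from 0) for each library, with a line at the group mean, and the tumour points lie at 0.591 to 0.762 below all culture points. The right panel plots the summed CPM of 4 gene lists on a log axis, 1 point per library. The 10 markers and 20 other mature neutrophil genes are lower in CD71+ than in CD71- of the same origin, and macrophage and microglia markers are higher.

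Ly6g (ENSMUSG00000022582.4, chromosome 15, 75155240 to 75159126, plus strand) was at its highest in culture. It was read at 78.2 and 60.2 CPM in culture CD71-, 23.1 and 16.3 CPM in culture CD71+, 9.35 and 14.1 CPM in tumour CD71-, and 6.06 and 9.03 CPM in tumour CD71+. The ranges of the 4 groups did not overlap in CPM, but by total counts the tumour groups overlapped. The tumour values rest on 63 to 102 counts. Ly6g fell in culture by 1.81 from CD71- to CD71+ (SE 0.26, adjusted p = 0.000505), a 3.51-fold lower level. The tumour difference of Ly6g was −0.64 (SE 0.30, adjusted p = 0.0975) and did not pass. It was −1.06 (adjusted p = 0.0362) without tumour CD71- replicate 1 and −0.97 (adjusted p = 0.0554) without tumour CD71+ replicate 2, but −0.42 (adjusted p = 0.395) and −0.38 (adjusted p = 0.402) without the other library of each group. From culture to tumour Ly6g fell by 2.56 in CD71- (SE 0.28, adjusted p = 2.89e-06) and by 1.38 in CD71+ (SE 0.28, adjusted p = 0.000801). Set against S100a8, another marker of the same cells, there were 38.5 to 72.5 Ly6g counts per 1000 S100a8 counts in the 4 culture libraries and 8.44 to 11.1 in the 4 tumour libraries. Only 4 of the 892 stretches of 50 bases in its transcript occur in another gene, so counts of Ly6g are little exposed to its relatives. Of those relatives Ly6a, which encodes the surface protein Sca-1, moved the other way in the tumour, where it rose from 4.61 and 4.71 CPM to 14.9 and 18.6 CPM (by 1.85, adjusted p = 0.000584). In culture Ly6a moved in the direction of Ly6g, from 3.02 and 2.63 CPM in CD71- to 1.34 and 1.14 CPM in CD71+.

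The promoter windows of Ly6g and of G0s2 are printed because from culture to tumour, in CD71-, Ly6g had the largest fall of the 10 and G0s2 the largest rise (in CD71+ the largest fall was that of Padi4). They hold the 200 bases before the RefSeq start, on the strand of the gene and on GRCm38.p6, with capitals for the motif letters found on either strand. The Ly6g window printed (chr15:75155061-75155260, plus strand) carries GAGGAA or its reverse complement TTCCTC, with first bases 136 and 31 bases before the RefSeq start. GAGGAA is a core of sites for the ETS factor PU.1. Another RefSeq start of Ly6g has an overlapping window (chr15:75155129-75155328), where only GAGGAA was found, 99 bases before that start. The G0s2 window (chr1:193273189-193273388, minus strand) carries GCGTG, a core of hypoxia response elements, 142 bases before the start.
Ly6g promoter: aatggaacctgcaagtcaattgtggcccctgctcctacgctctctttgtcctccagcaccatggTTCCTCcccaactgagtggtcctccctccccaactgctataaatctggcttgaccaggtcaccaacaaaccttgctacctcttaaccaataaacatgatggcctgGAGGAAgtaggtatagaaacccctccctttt
G0s2 promoter: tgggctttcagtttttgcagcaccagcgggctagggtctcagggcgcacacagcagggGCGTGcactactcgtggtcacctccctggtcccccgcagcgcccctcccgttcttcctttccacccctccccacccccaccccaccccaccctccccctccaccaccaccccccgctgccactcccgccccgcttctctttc
Over the 10 genes, GAGGAA or TTCCTC was found in the windows of S100a8, Ly6g, Stfa2l1 and Mmp25, and ACGTG or GCGTG in those of G0s2, Mmp25 and Msrb1. TTGCNNAA, a form of the C/EBP site, was found in none of them. Among 32851 windows of the same length, 19% held GAGGAA on either strand, 34.1% held ACGTG or GCGTG, and 7.47% held TTGCNNAA. A match is a run of letters and not a measured binding site.

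G0s2 (ENSMUSG00000009633.3, chromosome 1, 193272161 to 193273217, minus strand) encodes an inhibitor of adipose triglyceride lipase, the enzyme that starts the breakdown of lipid droplets. It was read at 4.03 and 5.80 CPM in culture CD71-, 3.08 and 3.18 CPM in culture CD71+, 1360.1 and 1225 CPM in tumour CD71-, and 729 and 537 CPM in tumour CD71+. Every tumour library was far above every culture library, and the 4 groups did not overlap. The rise from culture to tumour was 8.06 on the log2 scale in CD71- (SE 0.27, adjusted p = 6.65e-11), or 267-fold, and 7.66 in CD71+ (SE 0.26, adjusted p = 8.09e-11), or 202-fold. Within the tumour G0s2 fell by 1.03 from CD71- to CD71+ (SE 0.19, adjusted p = 0.00102). In culture, on 64 to 101 counts per library, the difference was −0.63 (SE 0.24, adjusted p = 0.0878) and did not pass. It was −0.87 (adjusted p = 0.0356) without culture CD71- replicate 1 and −0.36 (adjusted p = 0.407) without culture CD71- replicate 2. There were 661 to 1329 G0s2 counts per 1000 S100a8 counts in the tumour libraries and 3.71 to 9.46 in the culture libraries.

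The lipase that G0s2 inhibits and that enzyme's other regulators were read beside it. Hilpda, which encodes a hypoxia-induced inhibitor of the same lipase, rose with G0s2 from culture to tumour, from 57.5 ± 3.38 to 773 ± 122 CPM in CD71- (by 3.75, SE 0.23, adjusted p = 9.69e-09) and from 61.9 ± 13.5 to 445 ± 112 CPM in CD71+. Pnpla2, the gene of the lipase, rose less, from 63.8 ± 5.99 to 189 ± 3.71 CPM in CD71- (by 1.57, SE 0.17, adjusted p = 2.25e-06). Abhd5, which encodes the co-activator of the lipase, rose from 37.1 ± 2.11 to 126 ± 4.73 CPM in CD71- (by 1.76, SE 0.17, adjusted p = 5.71e-07). From CD71- to CD71+ of the tumour these 3 genes fell, Pnpla2 by 1.17 (SE 0.17, adjusted p = 0.000173), Hilpda by 0.80 (SE 0.21, adjusted p = 0.00799) and Abhd5 by 0.71 (SE 0.16, adjusted p = 0.00339). None of the 3 passed in culture, where their log2 fold changes were −0.49, 0.11 and 0.12. Exons of A730085K08Rik overlap those of Abhd5 on the opposite strand, and whether the counting used strand is not given.

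Retnlg (ENSMUSG00000022651.6, chromosome 16, 48872621 to 48874496, plus strand) encodes a secreted resistin-like protein of marrow and blood neutrophils. Retnlg stood at 191 and 123 CPM in culture CD71-, 22.4 and 14.9 CPM in culture CD71+, 414 and 916 CPM in tumour CD71-, and 245 and 390 CPM in tumour CD71+. The groups did not overlap in CPM, but by total counts tumour CD71+ overlapped with both CD71- groups. The tumour CD71- replicates of Retnlg differed more from each other than those of any other gene of the 10. Retnlg fell in culture by 3.07 (SE 0.44, adjusted p = 0.00249), or 8.39-fold, the largest of the 10 differences between sort fractions. The tumour difference of −1.07 had a wide error (SE 0.41, adjusted p = 0.064) and did not pass. With 1 library left out it ran from −1.68 (adjusted p = 0.00515, without tumour CD71- replicate 1) to −0.49 (adjusted p = 0.291, without tumour CD71- replicate 2). From culture to tumour Retnlg rose by 2.08 in CD71- (SE 0.42, adjusted p = 0.0022) and by 4.09 in CD71+ (SE 0.46, adjusted p = 8.89e-05). Without culture CD71- replicate 2 the first of these was 1.77 (adjusted p = 0.0518). Retn, the gene of resistin, followed in the tumour at much lower levels, from 7.40 and 7.34 CPM in CD71- to 2.12 and 3.86 CPM in CD71+ (log2 fold change −1.30, adjusted p = 0.0326).

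Padi4 (ENSMUSG00000025330.6, chromosome 4, 140745865 to 140774236, minus strand) encodes the enzyme that converts histone arginine to citrulline when neutrophils release extracellular traps. Its level was 232 and 311 CPM in culture CD71-, 119.2 and 132 CPM in culture CD71+, 119.5 and 76.5 CPM in tumour CD71-, and 38.3 and 34.1 CPM in tumour CD71+. The tumour CD71+ libraries were the lowest, and culture CD71+ overlapped with tumour CD71-. Padi4 fell by 1.44 from CD71- to CD71+ of the tumour (SE 0.22, adjusted p = 0.000287), the largest of the 10 differences there, and by 1.12 in culture (SE 0.21, adjusted p = 0.0031). From culture to tumour it fell by 1.47 in CD71- (SE 0.22, adjusted p = 4.36e-05) and by 1.79 in CD71+ (SE 0.22, adjusted p = 1.16e-05). Its paralog Padi2 went the other way between sort fractions, from 0.651 and 2.09 CPM to 6.56 and 5.94 CPM in culture (a rise of 2.28, adjusted p = 0.00217) and from 2.37 and 2.91 CPM to 22.0 and 23.0 CPM in the tumour (a rise of 3.09, adjusted p = 8.71e-05). Padi2 was the only paralog of Padi4 with enough counts to test.

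Mmp25 (ENSMUSG00000023903.8, chromosome 17, 23628311 to 23645277, minus strand) encodes a GPI-anchored matrix metalloproteinase of the leukocyte surface. The libraries gave 24.5 and 32.7 CPM in culture CD71-, 13.7 and 14.7 CPM in culture CD71+, 158 and 124 CPM in tumour CD71-, and 87.1 and 61.7 CPM in tumour CD71+. The 4 groups did not overlap. Mmp25 fell by 0.92 from CD71- to CD71+ in the tumour (SE 0.21, adjusted p = 0.00364) and by 1.01 in culture (SE 0.22, adjusted p = 0.00664; 0.0772 without culture CD71+ replicate 1). By total counts its tumour difference was −0.36 (adjusted p = 0.159) and did not pass. Mmp25 rose by 2.30 and 2.39 from culture to tumour in CD71- and CD71+ (adjusted p = 7.26e-07 and 6.76e-07). Its relative Mmp14, a transmembrane metalloproteinase, rose from CD71- to CD71+ instead, from 19.4 and 18.0 CPM to 79.8 and 74.1 CPM in the tumour (by 2.04, adjusted p = 4.6e-05) and from 3.14 and 6.07 CPM to 20.3 and 19.7 CPM in culture (by 2.15, adjusted p = 0.000141).

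Jaml (ENSMUSG00000048534.7, chromosome 9, 45079183 to 45108534, plus strand) encodes a junctional adhesion molecule-like protein that binds the coxsackie and adenovirus receptor during migration. Jaml levels were 114 and 103 CPM in culture CD71-, 50.4 and 49.1 CPM in culture CD71+, 332 and 289 CPM in tumour CD71-, and 139.9 and 136 CPM in tumour CD71+. Replicates were close and no groups overlapped in CPM, but by total counts culture CD71- overlapped with tumour CD71+. Jaml fell by nearly the same amount from CD71- to CD71+ in both origins, by 1.17 in the tumour (SE 0.16, adjusted p = 0.000108) and by 1.12 in culture (SE 0.16, adjusted p = 0.000417), with a difference of −0.05 between them (SE 0.22, adjusted p = 0.92). It rose from culture to tumour by 1.52 in CD71- (SE 0.16, adjusted p = 1.63e-06) and by 1.47 in CD71+ (SE 0.16, adjusted p = 3.08e-06). An antisense gene, Gm10684, overlaps its exons and holds 351 (14.6%) of the 2412 stretches of 50 bases in its transcript. Whether the counting used strand is not given in the sources used here, so reads of that overlap cannot be told apart. Cxadr, the gene of its ligand, was read at 0.0906 to 0.948 CPM in the 4 culture libraries, 12.4 and 11.9 CPM in tumour CD71-, and 7.21 and 4.71 CPM in tumour CD71+. Exons of Btg3 and Gm49590 overlap those of Cxadr on the opposite strand, so the same limit holds for its counts.

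Msrb1 (ENSMUSG00000075705.12, chromosome 17, 24736642 to 24742778, plus strand) encodes a selenoprotein that repairs oxidised methionine. Levels of Msrb1 were 101 and 135 CPM in culture CD71-, 90.2 and 68.9 CPM in culture CD71+, 472 and 501 CPM in tumour CD71-, and 282 and 232 CPM in tumour CD71+. Tumour libraries were all above culture libraries. Msrb1 fell by 0.92 from CD71- to CD71+ of the tumour (SE 0.19, adjusted p = 0.00204), although by total counts the difference was −0.37 (adjusted p = 0.126). The culture difference of −0.57 (SE 0.19, adjusted p = 0.0619) did not pass. It was −0.74 (adjusted p = 0.0185) without culture CD71- replicate 1, −0.33 (adjusted p = 0.291) without culture CD71- replicate 2 and −0.37 (adjusted p = 0.478) without culture CD71+ replicate 2. Msrb1 rose by 2.05 (SE 0.20, adjusted p = 7.8e-07) and 1.69 (SE 0.20, adjusted p = 6.15e-06) from culture to tumour in CD71- and CD71+. Msra, which repairs the other stereoisomer of oxidised methionine, fell from CD71- to CD71+ in both origins, by 0.96 in the tumour (adjusted p = 0.000767) and by 0.65 in culture (adjusted p = 0.0195).

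Stfa2l1 (ENSMUSG00000059657.5, chromosome 16, 36156811 to 36161953, plus strand) encodes a stefin A, an inhibitor of cysteine cathepsins, in a cluster of near-identical genes. The first 120 coding bases of Stfa2l1 and of 2 relatives are printed to show how close the copies are, with capitals in the relatives where the base is not that of Stfa2l1 (GENCODE M21 transcripts).
Stfa2l1: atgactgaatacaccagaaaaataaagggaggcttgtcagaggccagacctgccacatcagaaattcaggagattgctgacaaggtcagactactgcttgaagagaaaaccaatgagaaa
Stfa2: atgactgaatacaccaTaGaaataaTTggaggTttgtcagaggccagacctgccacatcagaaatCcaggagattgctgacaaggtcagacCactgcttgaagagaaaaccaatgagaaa
Stfa3: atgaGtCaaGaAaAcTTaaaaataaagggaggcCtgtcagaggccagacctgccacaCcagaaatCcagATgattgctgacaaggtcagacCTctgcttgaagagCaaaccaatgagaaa
Over these bases Stfa2 differs at 7 positions and Stfa3 at 15. Over the whole coding sequence of 309 bases Stfa2 is 96.4% identical to Stfa2l1, Stfa3 81.6%, 2010005H15Rik 79.3% and Gm5483 78%. Of 370 stretches of 50 bases in the Stfa2l1 transcript, 91 (24.6%) occur unchanged in Stfa2 or Gm49652, so reads there could be split between copies or lost, and Stfa2l1 counts are uncertain to that extent.

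Stfa2l1 was read at 62.0 and 36.4 CPM in culture CD71-, 16.5 and 16.6 CPM in culture CD71+, 110.0 and 136 CPM in tumour CD71-, and 52.5 and 57.2 CPM in tumour CD71+. Culture CD71- overlapped with tumour CD71+, and the other neighbours in the order of levels were apart in CPM. By total counts culture CD71- also overlapped with tumour CD71-. Stfa2l1 fell by 1.16 from CD71- to CD71+ in the tumour (SE 0.23, adjusted p = 0.00129) and by 1.58 in culture (SE 0.23, adjusted p = 0.000537). The tumour fall did not pass by total counts (−0.60, adjusted p = 0.057). From culture to tumour it rose by 1.32 in CD71- (SE 0.23, adjusted p = 0.000167; 0.38 with an adjusted p of 0.168 by total counts) and by 1.73 in CD71+ (SE 0.23, adjusted p = 2.43e-05). Its closest copy Stfa2 went the other way between origins, from 17.9 and 16.6 CPM in culture CD71- to 3.77 and 6.65 CPM in tumour CD71- (a fall of 1.73, SE 0.36, adjusted p = 0.000734) and from 9.21 and 9.85 CPM to 2.50 and 5.18 CPM in CD71+. There were 0.289 and 0.456 Stfa2 counts per Stfa2l1 count in culture CD71- and 0.557 and 0.595 in culture CD71+, but 0.0343 and 0.0491 in tumour CD71- and 0.0476 and 0.0905 in tumour CD71+. The sum of the 2 genes, which no division of reads between them can alter, was 79.9 and 52.9 CPM in culture CD71-, 25.7 and 26.4 CPM in culture CD71+, 114 and 142 CPM in tumour CD71-, and 55.0 and 62.4 CPM in tumour CD71+. Tumour CD71- was the highest and culture CD71+ the lowest for the sum as for Stfa2l1 alone, and culture CD71- and tumour CD71+ overlapped in both. Reads that were lost, or counted to Gm49652, would be missing from the sum too.

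Gm5483, another stefin A gene 22258 bases away, gave most of the family's counts, 53.8% to 75.9% per library. Its merged exons hold 1862 bases, however, against 419 for Stfa2l1. Per kilobase Gm5483 was above Stfa2l1 in culture CD71+ only (80.7 and 69.4 against 39.4 and 39.5 CPM). In tumour CD71-, for example, it stood at 185 and 228 CPM per kilobase against 263 and 323 CPM. Without division by length Gm5483 was read at 128 and 135 CPM in culture CD71- and 150.3 and 129 CPM in culture CD71+. In the tumour it was read at 345 and 425 CPM in CD71- and 216 and 233 CPM in CD71+. Gm5483 fell in the tumour by 0.78 (SE 0.17, adjusted p = 0.00231), and in culture its log2 fold change was 0.09 (SE 0.17, adjusted p = 0.77). The share of Stfa2l1 in the counts of the family was 26.1% and 16.7% in culture CD71-, 8.23% and 9.01% in culture CD71+, 23.0% and 22.8% in tumour CD71-, and 18.5% and 18.6% in tumour CD71+. Stfa1, at 0.657 to 8.73 CPM, fell from CD71- to CD71+ in both origins, by 1.15 in the tumour (adjusted p = 0.0256) and by 1.48 in culture (adjusted p = 0.026). Among the others, 2010005H15Rik fell in the tumour by 1.21 (adjusted p = 0.00315), BC100530 and Stfa3 did not pass between sort fractions in either origin, and BC117090 had 0 to 16 counts per library and was not tested. Cstb, the gene of cystatin B elsewhere in the genome, rose from culture to tumour by 1.84 in CD71- (SE 0.23, adjusted p = 7.84e-06) and by 1.29 in CD71+ (SE 0.22, adjusted p = 0.000213).

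**Figure D3:**
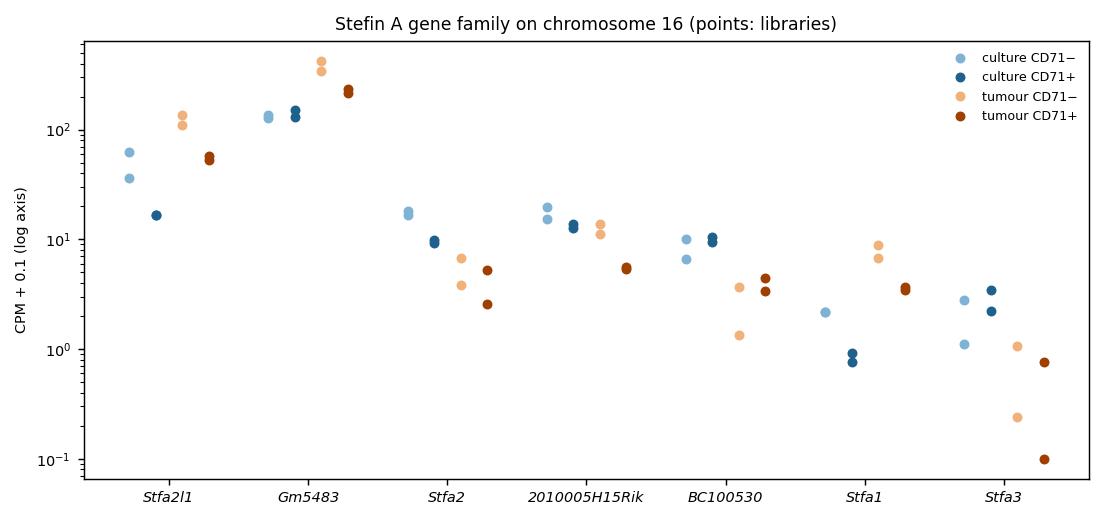
Levels of 7 stefin A genes of the cluster on chromosome 16 are plotted as CPM on a log axis, with a small constant added so that a value of 0 can be drawn, and 1 point per library coloured by group. Stfa2l1 and Gm5483 are highest in tumour CD71-, whereas Stfa2 is highest in culture CD71-, at 17.9 and 16.6 CPM.

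The comparison of CD71+ with CD71- neutrophils inside the tumour asked which programmes differ between these subsets. Of the 10 marker genes 7 were lower in CD71+ and none was higher, where 17.3% of all genes tested were lower and 26.2% higher. Those that fell were Padi4, Jaml, Stfa2l1, G0s2, Msrb1, Mmp25 and S100a8, by 0.60 to 1.44 on the log2 scale. Ly6g, S100a9 and Retnlg did not pass (−0.64, −0.49 and −1.07). In all 10 the CD71+ libraries were below the CD71- libraries without overlap in CPM. By total counts the tumour libraries of Ly6g, S100a8, S100a9 and Retnlg overlapped. How many of all genes were apart in CPM was not counted, so whether this is particular to the 10 is not known. The median log2 fold change of the 10 was −0.98 where that of all genes was 0.13. The other mature neutrophil genes were lower with them: 19 of 20 fell and none rose, with a median of −1.02, among them Csf3r, the receptor of the growth factor G-CSF (by 1.37, adjusted p = 0.000114), and Wfdc21 (by 1.58, adjusted p = 0.000564). Of 8 early neutrophil genes tested 1 rose (Cd34, a progenitor surface protein, by 3.56) and none fell. Of 9 secondary and tertiary granule genes Olfm4 and Mmp9 fell and Camp, the gene of cathelicidin, rose by 1.78 (adjusted p = 0.0366).

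Markers of other cells moved with this difference. Of 14 macrophage and monocyte markers 13 were higher in tumour CD71+, among them Mrc1, the mannose receptor (by 4.25), and Ms4a7 (by 4.20). Their summed level was 823 to 861 CPM in tumour CD71- and 3931 to 4309 CPM in tumour CD71+, and none of them was at 0 in either group. All 7 microglia markers were higher, with summed levels of 54.2 to 68.9 CPM and 535 to 711 CPM and none at 0. Glioma and neural markers summed to 15.7 to 25.3 CPM and 47.6 to 81.7 CPM (4 of 5 tested were higher), and markers of dividing cells to 45.4 to 55.6 CPM and 124.6 to 182 CPM (5 of 6 higher). The part of these cells in the fall of the marker genes was not tested.

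The tumour difference of the marker genes was also measured against the other mature neutrophil genes. When library sizes were set by the summed counts of those 20 genes, the median of the 10 markers was 0.08, none was lower, and S100a9 was higher (0.57, adjusted p = 0.0262). On that scale the median of all genes was 1.18, and of 15975 genes tested 27 were lower and 9542 higher. By total counts 3 of the 10 were lower (G0s2, Padi4 and Jaml), with a median of −0.42 where that of all genes was 0.69, and with DESeq2 size factors all 10 were lower, with a median of −1.20 where that of all genes was −0.07. Of all 15975 genes tested 491 were lower by total counts and 3854 with DESeq2 size factors. Of all calls in this comparison 60.2% were higher by TMM, 47.3% by DESeq2 size factors, 93.3% by total counts and 99.7% on the mature neutrophil scale.

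In culture the same comparison gave falls in most of the marker genes. Of the 10, 8 were lower in CD71+ and none was higher, where 8.36% of all genes tested were lower and 7.88% higher. Retnlg, S100a9, Ly6g, S100a8, Stfa2l1, Jaml, Padi4 and Mmp25 fell by 1.01 to 3.07 on the log2 scale, and G0s2 and Msrb1 did not pass (−0.63 and −0.57). No CD71+ library overlapped with a CD71- library for any of the 10 in CPM, but here too the share of all genes apart in this way was not counted. By total counts the culture libraries of Msrb1 overlapped. The median of the 10 was −1.35 where that of all genes was 0.03. Of the 20 other mature neutrophil genes 8 fell and none rose, with a median of −0.53. Asprv1, which encodes a retroviral-like protease, fell by 2.78 (adjusted p = 1.53e-05) and Csf3r by 2.33 (adjusted p = 7.2e-06). Of 8 early genes Kit fell and Cd34 rose, and of 9 granule genes Camp fell by 2.09 (adjusted p = 0.0217) and Olfm4 by 1.5 (adjusted p = 0.000513).

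Here too other markers moved. Of 6 markers of dividing cells 3 were higher in culture CD71+, with sums of 89.4 to 104.3 CPM in CD71- and 187 to 196 CPM in CD71+. Of 5 eosinophil, basophil and mast cell markers tested 2 were lower, with sums of 70.9 to 100.3 CPM and 50.1 to 56.1 CPM. Of 14 macrophage and monocyte markers 9 were higher in culture CD71+, with summed levels of 682 to 730 CPM in CD71- and 1039 to 1215 CPM in CD71+, and C1qa, a complement gene of tissue macrophages, was at 0 in both CD71- libraries. Of 7 microglia markers 3 were higher, with sums of 41.0 to 41.8 CPM and 81.1 to 92.5 CPM, and Sall1 and Siglech were at 0 in all 4 culture libraries. The share of mitochondrial transcripts was higher in culture CD71- as given above, and the part of these values in the result was not tested. Scaled on the other mature neutrophil genes, 5 of the 10 markers remained lower in culture CD71+ and none was higher, with a median of −0.43 where that of all genes was 0.93. These 5 were Ly6g, S100a8, S100a9, Retnlg and Stfa2l1. Over all 15975 genes tested 205 were lower and 8931 higher on that scale. Of all calls in culture 48.5% were higher by TMM, 80.9% by total counts and 97.8% on the mature neutrophil scale.

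**Figure D4:**
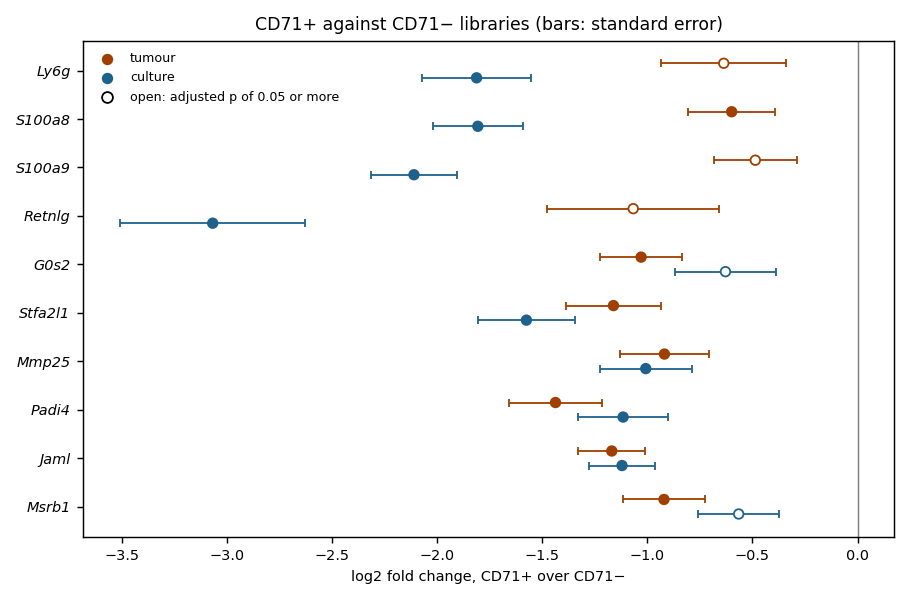
Log2 fold changes of CD71+ over CD71- libraries are plotted for the 10 genes, in the tumour and in culture, with bars of 1 standard error and open points where the adjusted p was 0.05 or more. All 20 points lie below 0. S100a9 stands at −2.11 in culture and −0.49 in the tumour, and Jaml at −1.12 and −1.17.

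Whether the sort fractions differed by a different amount in the 2 origins was tested as the tumour effect minus the culture effect. S100a8 and S100a9 passed, with differences of 1.21 (SE 0.29, adjusted p = 0.0148) and 1.62 (SE 0.28, adjusted p = 0.00239), so the value of each was closer to 0 in the tumour than in culture. None of the 10 differed in the other direction. Over all genes tested 10.8% had a higher and 4.71% a lower value in the tumour. Ly6g at 1.18 (SE 0.39, adjusted p = 0.0572) and Retnlg at 2.0 (SE 0.58, adjusted p = 0.0518) did not pass. Both passed by total counts (1.43 and 2.26, adjusted p = 0.024 and 0.0407). Ly6g passed when replicate 2 of culture CD71- (adjusted p = 0.0444) or replicate 1 of tumour CD71+ (0.0369) was left out, and Retnlg when replicate 2 of tumour CD71- (0.0162) or replicate 1 of tumour CD71+ (0.038) was. For the other 6 genes the difference ran from −0.40 (G0s2) to 0.41 (Stfa2l1), with SE of 0.22 to 0.32. The median of the 10 was 0.25, beside 0.18 for all genes. With tumour CD71- replicate 1 left out S100a8 no longer passed (0.90, adjusted p = 0.128), nor did it without replicate 2 of culture CD71+ (0.083), of tumour CD71- (0.0564) or of tumour CD71+ (0.0626). Among all calls 69.6% were higher by TMM, 52.1% by DESeq2 size factors, 87.4% by total counts and 81.3% on the mature neutrophil scale.

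Between origins the marker genes divided. In CD71- libraries 6 of the 10 were higher in the tumour (G0s2, Mmp25, Retnlg, Msrb1, Jaml and Stfa2l1) and 2 were lower (Ly6g and Padi4), where 30.3% of all genes tested were higher and 36.8% lower. S100a8 and S100a9 did not pass there, at −0.19 (SE 0.21, adjusted p = 0.432) and 0.27 (SE 0.20, adjusted p = 0.246), and their libraries overlapped. Other scalings gave calls there. By total counts S100a8 was −1.10 (adjusted p = 0.000261) and S100a9 −0.65 (adjusted p = 0.00694), and with DESeq2 size factors S100a9 was 0.51 (adjusted p = 0.0349). S100a9 also passed without culture CD71- replicate 2 (0.50, adjusted p = 0.0333), and S100a8 changed sign without culture CD71- replicate 2 (0.08) or tumour CD71- replicate 1 (0.13). In CD71+ libraries 8 of the 10 were higher in the tumour and the same 2 were lower, where 30.3% of all genes were higher and 27.6% lower. S100a8 rose there by 1.02 (SE 0.21, adjusted p = 0.000917), but by total counts it stood at 0.35 (adjusted p = 0.153) and on the mature neutrophil scale at −0.81 (adjusted p = 0.00383). S100a9 rose there by 1.89 (SE 0.20, adjusted p = 2.8e-06), and stood at 0.059 (adjusted p = 0.794) on the mature neutrophil scale. The median of the 10 was 1.42 in CD71- and 1.71 in CD71+, where those of all genes were −0.28 and −0.08. These comparisons share their libraries with those of the sort fractions. They also set cells of a tumour against cells made in a dish, so origin, handling and time in culture cannot be told apart. Markers of other cells moved between origins too, on the summed levels given above. Of 14 macrophage and monocyte markers 10 were higher and 1 lower in tumour CD71-, and 11 were higher in tumour CD71+. Of 7 microglia markers 4 were higher and 1 lower in CD71-, and 7 were higher in CD71+. All 5 glioma and neural markers tested were higher in both, and their sums in culture were 0.453 to 0.770 CPM in CD71-, where Gfap, Olig2, Slc1a3, Sox2 and Nes were at 0, and 0.622 to 0.732 CPM in CD71+. Of 5 eosinophil, basophil and mast cell markers tested 3 were lower and 1 higher in CD71-, and 2 were lower and 2 higher in CD71+. Their sums in the tumour were 50.68 to 50.72 CPM in CD71-, where Prg2, Epx, Mcpt8, Cpa3 and Ms4a2 were at 0, and 34.7 to 49.4 CPM in CD71+. Of 6 markers of dividing cells 3 were lower in CD71-, and 1 was higher and 1 lower in CD71+. The part of these cells in the differences between origins was not tested.

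The other mature neutrophil genes were also mostly higher in the tumour, 16 of 20 in CD71- and 15 of 20 in CD71+, with 2 lower in each (Wfdc21 and Pygl). Trem1, a receptor that amplifies inflammation, rose by 5.03 in CD71- (adjusted p = 5.51e-10), and Asprv1 by 4.63 in CD71- and 6.34 in CD71+. Of 8 early neutrophil genes tested 3 were higher and 4 lower in both sort fractions, among the lower ones Fcnb, a ficolin of marrow precursors, with 105 to 130 counts in culture CD71- and 1 count in each tumour CD71- library, and Ms4a3, with 24 to 31 counts and 0 in the same groups. When library sizes were set by the other mature neutrophil genes the median of the 10 markers was −0.56 in CD71-, with 6 lower and G0s2 alone higher, and −0.12 in CD71+, with 3 lower and 2 higher. On that scale the medians of all genes were −2.26 and −1.92. Of 15975 genes tested 11316 were lower and 1671 higher in CD71-, and 11592 were lower and 1823 higher in CD71+. G0s2 and the falls of Ly6g and Padi4 passed with each of the scalings in both sort fractions. By total counts the median of the markers was 0.48 in CD71- and 1.03 in CD71+, where those of all genes were −1.21 and −0.76. Of all calls 45.1% were higher in CD71- and 52.3% in CD71+ by TMM, 25.3% and 29.3% by total counts, and 12.9% and 13.6% on the mature neutrophil scale.

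**Figure D5:**
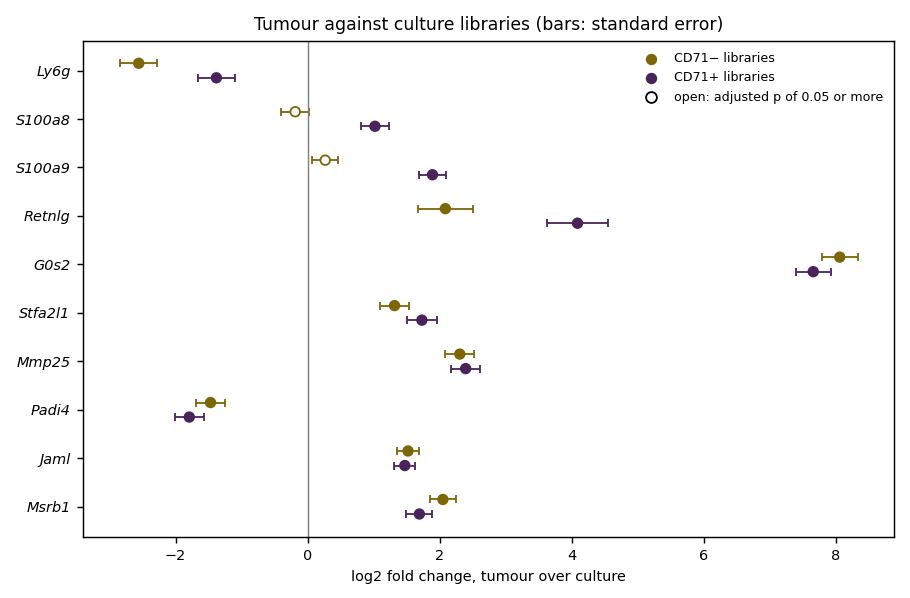
Log2 fold changes of tumour over culture libraries are plotted for the 10 genes, within CD71- and within CD71+, with bars of 1 standard error and open points where the adjusted p was 0.05 or more. G0s2 stands at 8.06 and 7.66, and Ly6g and Padi4 are below 0 in both.

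Relatives of the marker genes by sequence did not follow them as a group. Of 6 S100 genes tested S100a11 fell from CD71- to CD71+ in both origins, by 1.13 in the tumour (adjusted p = 0.000367) and by 0.64 in culture (adjusted p = 0.0272). S100a10, a partner of annexin A2, rose by 2.36 in the tumour, from 8.10 and 5.96 CPM to 39.0 and 33.2 CPM. From culture to tumour none of these 6 was higher and 4 were lower in CD71-, and 5 were lower in CD71+. Of 7 stefin relatives tested 3 fell in the tumour and 1 in culture between sort fractions. Of 7 partners of the marker genes (Tlr4, Ager, Bsg, Cxadr, Pnpla2, Abhd5 and Hilpda) 6 fell from CD71- to CD71+ in the tumour and only Ager in culture, where 17.3% and 8.36% of all genes tested were lower. The difference between origins itself passed for Tlr4 (−1.02, adjusted p = 0.0253) and Abhd5 (−0.83, adjusted p = 0.0273). From culture to tumour 6 of the 7 partners rose in CD71- and 5 in CD71+, where 30.3% of all genes tested were higher in each, and Ager fell in both.

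As a description of the shape of the pattern, each marker gene was set against the mean of the other 9 over the 8 libraries, after scaling each gene to unit spread. Pearson's r was 0.95 for S100a9, 0.94 for Stfa2l1, 0.93 for Jaml, 0.92 for Retnlg, 0.86 for S100a8, 0.82 for Mmp25, 0.80 for Msrb1 and 0.62 for G0s2, but −0.22 for Ly6g and −0.21 for Padi4. The libraries share their groups and their scaling, so these values have no p. Over 9759 other genes with a mean of at least 5 CPM, those most like the mean pattern were Ripor2 (r = 0.991), Gad1-ps (0.990), Glis3 (0.989), Gm43181 (0.985) and Apbb1ip (0.983), again over 8 libraries. Ripor2, which encodes an inhibitor of the GTPase RhoA, was read at 187 and 175 CPM in culture CD71-, 45.6 and 46.9 CPM in culture CD71+, 451 and 397 CPM in tumour CD71-, and 178 and 159 CPM in tumour CD71+. Gad1-ps is a processed pseudogene and Gm43181 lies inside Fbxl5 on the same strand, so their counts are uncertain. With levels from total counts 2 of the 5 names were the same.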

How the data were processed

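RNA of 8 sorted samples was sequenced, in 4 groups of 2 taken from the labels. Per the labels, a Zymo Quick-RNA Microprep kit gave the RNA, and a stranded Illumina kit gave the libraries after Ribo-Zero Plus depletion of ribosomal RNA. Per the submitters' processing notes, FastQC, cutadapt, STAR, featureCounts and DESeq2 were used with mm10. Not given in the sources used here are tool versions and the strand setting of the counting. The authors deposited whole-number read counts per gene, not normalized. All 55450 gene IDs and names were found in GENCODE M21, the source of coordinates, exon lengths and stefin transcripts. Promoter windows are from RefSeq on GRCm38.p6. All 10 genes had one, and Ly6g had another for a further start.

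The test was edgeR 4.0.16 in R 4.3.3 (quasi-likelihood, robust dispersions, TMM scaling of total counts). The filter filterByExpr with the 4 groups left 15975 genes. All 8 libraries entered a model of group means with 4 residual degrees of freedom (common biological coefficient of variation 0.190), from which 5 comparisons were taken. CPM were computed by edgeR on TMM-scaled library sizes, and per-kilobase values divide CPM by merged exon length. The test was tested on simulated data with known changes. The 10 genes, the other gene lists and the rules were chosen with earlier results of these data known, and members of the lists come from textbook knowledge. Of 159 listed genes 158 were in the table. Named genes are the 10 markers in full, the stefin relatives and partners detected, the 5 most alike in pattern, and from each other list at most the 2 largest rises and 2 largest falls that passed. Alternatives were DESeq2 1.42.0 size factors, total counts, scaling on 20 other mature neutrophil genes, DESeq2's Wald test, no filter, a filter of 5 CPM in 2 libraries, only the groups compared, each library left out, and a block for replicate number. No replicate pair held identical values, and chi-square per degree of freedom was 12.6 to 69.2 within pairs.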

Additional observations from a re-analysis of the deposited data

Results flagged for a closer look

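S100a8 and S100a9 were singled out because their difference between sort fractions was not the same in the tumour and in culture, by a test of that difference. The tumour effect minus the culture effect was 1.21 for S100a8 (SE 0.29, edgeR adjusted p = 0.0148) and 1.62 for S100a9 (SE 0.28, edgeR adjusted p = 0.00239). Both CD71+ libraries were below both CD71- libraries for both genes in each origin in CPM, but by total counts their tumour libraries overlapped. How many of all genes were apart in CPM was not counted. With 1 library left out the difference ran from 0.90 to 1.43 for S100a8 and from 1.36 to 1.82 for S100a9. S100a8 did not keep its call in every such fit, as given above.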

How the results depend on the processing

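Scaling changed most. A value is called reversed here if its sign changed, whether or not it passed. Scaled on the other mature neutrophil genes, the tumour comparison gave 0 of the 10 lower and 1 higher, the reversed S100a9 (0.57, edgeR adjusted p = 0.0262). Over all 15975 genes it gave 27 lower and 9542 higher. Ly6g (0.43), S100a8 (0.47), Mmp25 (0.13) and Msrb1 (0.14) reversed without passing. So did Retnlg (0.016, edgeR adjusted p = 0.978) and G0s2 (0.022, edgeR adjusted p = 0.943). In culture this scaling gave 5 lower and 9136 calls over all genes, against 2595, with G0s2 (0.27) and Msrb1 (0.31) reversed. Of the 9136 calls 205 were lower. For the difference of the 2 effects it gave 4 higher (Jaml 0.10, reversed), where 1773 of all genes were higher. For tumour against culture it gave 6 lower and 1 higher in CD71- (S100a9 −1.75, Stfa2l1 −0.65, Jaml −0.47 reversed) and 2 higher in CD71+ (S100a8 −0.81, Stfa2l1 −0.11, Jaml −0.37, Msrb1 −0.14 reversed). Over all genes it gave 11316 lower and 1671 higher in CD71-, and 11592 lower and 1823 higher in CD71+. By total counts 3 were lower in the tumour (S100a9 0.069, reversed), 4 differed upward between origins (Jaml 0.21, reversed), and 4 were lower in CD71- tumour against culture (S100a9 −0.65, reversed). Over all genes 491 were lower in the tumour, 2733 differed upward, and 8840 were lower in CD71- tumour against culture. DESeq2 size factors and DESeq2's Wald test reversed Mmp25 in the difference (−0.082 and −0.081) and S100a8 in CD71- tumour against culture (0.057 in both), as did a fit of only the groups compared (0.0043). Without a filter 4 differed upward between origins, where 1898 of 29244 genes did.

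With 1 library left out, a lone sample is assumed to vary like the others. Calls over all genes then ran from 4495 to 7712 in the tumour, 826 to 2880 in culture and 966 to 3609 for the difference, where 1 to 4 of the 10 passed upward. The difference ran from −0.052 to 0.73 for Stfa2l1, −0.19 to 0.28 for Mmp25 and −0.26 to 0.011 for Jaml, and S100a8 in CD71- tumour against culture from −0.44 to 0.13. Same-numbered libraries did not deviate together (r of −0.126 to 0.072 over genes). The labels do not say whether they pair, and with 2 libraries a group these values cannot settle it. A replicate block gave 10 lower in the tumour and 10 in culture, and 4 upward for the difference. Calls over all 15975 genes rose with it, from 2769 to 3015 lower in the tumour and from 1336 to 1706 lower in culture. Upward calls for the difference rose from 1718 to 2050. The cause of these changes was not tested. Over all values of single genes 706 kept direction and call (or level), 42 gained a call, 27 lost one, 32 reversed and 24 levels moved by more than 1 SD. With 2 libraries a group the size that passes depends on the gene: Retnlg did not pass at a difference of 2.0 between the 2 effects, nor Ly6g at 1.18.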
